A study of Mus musculus with 48 samples.

Results

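The Slc25 genes encode the mitochondrial carrier family, and they were followed here in the mouse pars tuberalis, the pituitary tissue around the stalk that reads the nightly melatonin signal and carries day length to the hypothalamus. The family was taken as every gene whose symbol in the array's probe annotation starts with Slc25a, using probe sets with 1 symbol and keeping, where a gene had several, the brightest on average across the 48 arrays. This gave 44 of the 18194 genes measured. Of the 44, 23 had more than 1 probe set and 21 had a single one. Levels are log2 signals, and since probe sets differ in how brightly they bind, no carrier's level is ranked against that of another. The quartiles of all probe-set means serve only to mark dim and bright probe sets.

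All mice were male CBA/N and had first been kept for 3 weeks under short days of 8 h of light. Short-day mice stayed under that regime and were 8 weeks old when sampled. Long-day mice received 16 h of light for 2 weeks and were also 8 weeks old. Both remaining conditions were the first long day after the 3 weeks, at an age of 6 weeks: in the advance condition lights came on 8 h early, at ZT16, and in the delay condition they stayed on until ZT16. ZT counts hours from lights-on, and on the first long day it keeps the count of the short days before. Tissue was taken every 4 h at 6 times of day in all 4 conditions, with 2 arrays each time, so that a condition has 12 arrays. Each array held RNA punched from slices of 25 pooled mice, and the series text says that the whole procedure was repeated for the second replicate. The 12 arrays of a condition are therefore not 12 separate runs of its lighting regime, and the p-values measure spread between arrays of 1 time point.

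Mitochondrial carriers are small proteins of related sequence, most of which sit in the inner mitochondrial membrane and exchange a metabolite of the matrix for 1 of the cytosol. They move ADP and ATP, phosphate, amino acids, the acids of the citric acid cycle, nucleotides, cofactors and iron, and so link mitochondrial metabolism to the rest of the cell. The pars tuberalis thyrotroph is a secretory cell that makes thyrotropin under long days, and the clock and melatonin set the daily course of many of its genes. In many tissues clock proteins bind a DNA element called the E-box, the letters CACGTG, in the promoters of genes that cycle.

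The 7 thyrotroph genes had means over all arrays from 8.42 (Mtnr1a) to 13.82 (Cga), beside an upper quartile of probe-set means at 8.82, and 4 of them rose under long days. Genes of other cell types were bright too, among them Gja1 of astrocytes (13.30), Mbp of oligodendrocytes (13.23) and Gad1 of neurons (12.56). Array medians lay between 6.98 and 7.03. Marker genes of other cell types moved between photoperiods. Their counts stand beside 46.7% of all genes that passed at an adjusted p under 0.05 (limma), 17.6% upward and 29.1% downward. Of 4 tanycyte genes 3 fell under long days, and their summed signal lay from 13.39 to 13.93 under short and from 13.15 to 13.37 under long days. Of 5 ependymal genes 3 fell, with summed signals from 10.97 to 11.33 under short and from 10.70 to 10.95 under long days. Among 9 genes of hypothalamic neurons 1 rose and 3 fell, and the sums overlapped, from 14.66 to 15.02 and from 14.66 to 14.89. Of 6 astrocyte genes 2 rose and 2 fell, of 6 pars distalis genes 1 rose and 2 fell, and of 4 oligodendrocyte and 4 microglial genes 1 rose and 1 fell in each list. Of 4 endothelial genes 1 fell and of 2 blood genes none passed. The 3′ actin signal less the 5′ one, a measure of RNA integrity and labelling, was 1.90 ± 0.12 under short days, 1.65 ± 0.12 under long days, 1.69 ± 0.09 in advance and 1.85 ± 0.13 in delay (log2, SD, n = 12 arrays each). The part of these shifts in the results that follow was not tested, except by a fit with the actin measure as a covariate. In tissue punches fewer cells of a type and less RNA per cell cannot be told apart.

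The E-box letters were looked for in the 250 bases ahead of each start of transcription in RefSeq (build GRCm38.p6, mouse). They were present in 1978 of 32851 promoters of all genes (6.02%) and in 8 of the 43 promoters found for 34 of the carriers (18.6%), which belong to 7 genes. The median G and C content was 58.0% in carrier promoters and 52.4% in all promoters, and its part in these shares was not tested. The E-box windows are shown because Slc25a33 is among them. It is the carrier with the smallest p for a difference of daily course between long and short days. That call was lost in 5 of 32 other settings, as described further on. Each window is written 5′ to 3′ on the gene's strand, with the E-box in capitals.
Slc25a33: cccggcctccgcCACGTGac
Slc25a1: cgctccagacgCACGTGtctctaaactgc
Slc25a13: cacagtctgagtCACGTGtcctggcccctc
Slc25a14: tccacctccctcCACGTGacgccccaccca
Slc25a15: cgccctgccgcaCACGTGccgcggctccgg
Slc25a31: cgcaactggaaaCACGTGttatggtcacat
Slc25a36: cccctgggcgatCACGTGaaagaggcgtgc
The Slc25a33 window lies at chr4:149774268-149774287 on the minus strand, with the first base of the E-box 8 bases ahead of the start. In Slc25a14, on chrX:48623382-48623411, 1 E-box is counted in 2 promoters, 54 and 184 bases ahead of their starts. The E-box begins 239 bases ahead of the start in Slc25a1, 187 in Slc25a36, 125 in Slc25a13, 93 in Slc25a31 and 77 in Slc25a15. Of these 7 genes only Slc25a33 passed a test for daily variation, as described further on, and a match of letters is not a binding site.

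The promoters of the carriers with the smallest p for a difference of course and with the largest fall under long days are printed in full for comparison. They are Slc25a33 at chr4:149774268-149774517 and Slc25a23 at chr17:57059910-57060113, both on the minus strand and without the bases that lie inside the annotated gene.
Slc25a33: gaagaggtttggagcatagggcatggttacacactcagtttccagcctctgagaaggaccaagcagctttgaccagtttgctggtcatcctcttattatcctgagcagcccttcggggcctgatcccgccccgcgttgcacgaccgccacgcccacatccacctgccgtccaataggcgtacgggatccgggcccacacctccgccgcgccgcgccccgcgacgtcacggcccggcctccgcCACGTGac
Slc25a23: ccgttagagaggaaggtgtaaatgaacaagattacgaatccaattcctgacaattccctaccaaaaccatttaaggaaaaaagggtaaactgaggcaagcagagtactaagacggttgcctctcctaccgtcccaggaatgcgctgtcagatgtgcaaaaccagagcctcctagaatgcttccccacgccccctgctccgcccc
Counted over the whole promoter searched, Slc25a33 is 64.4% G and C with 23 CpG pairs, and Slc25a23 is 52.4% with 9. For Slc25a23 the count includes the bases inside the annotated gene, so these values do not describe the shorter stretch printed. Over the family the median G and C content was 58.0%, against 52.4% over all promoters. The palindromic cAMP response element TGACGTCA occurred in the promoters of Slc25a25 and Slc25a36 and in 1.55% of all promoters. The D-box letters TTATGTAA (0.819% of all promoters) and the estrogen-related receptor letters TCAAGGTCA (0.387%) were in no carrier promoter. Motifs were searched on both strands, and none of these letter strings contains another.

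The first comparison asks how the family differs after 2 weeks of long days. Averaged over the day, 15 carriers rose and 11 fell, while 18 did not pass the test (limma, Benjamini-Hochberg adjusted p under 0.05 over all genes). Of all 18194 genes 46.7% passed, 17.6% upward and 29.1% downward, so the 26 of 44 carriers (59.1%) stand beside a wide background. The median change of the family was −0.03 and that of all genes also −0.03. The median size of change without regard to sign was 0.136 for the carriers and 0.105 for all genes. At least a 1.5-fold change together with an adjusted p under 0.05 was met by 1 carrier, Slc25a23, and by 2.1% of all genes. Of the 26 carriers that passed, 15 had the same sign at all 6 time points, a count that was not made over all genes.

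**Figure D1:**
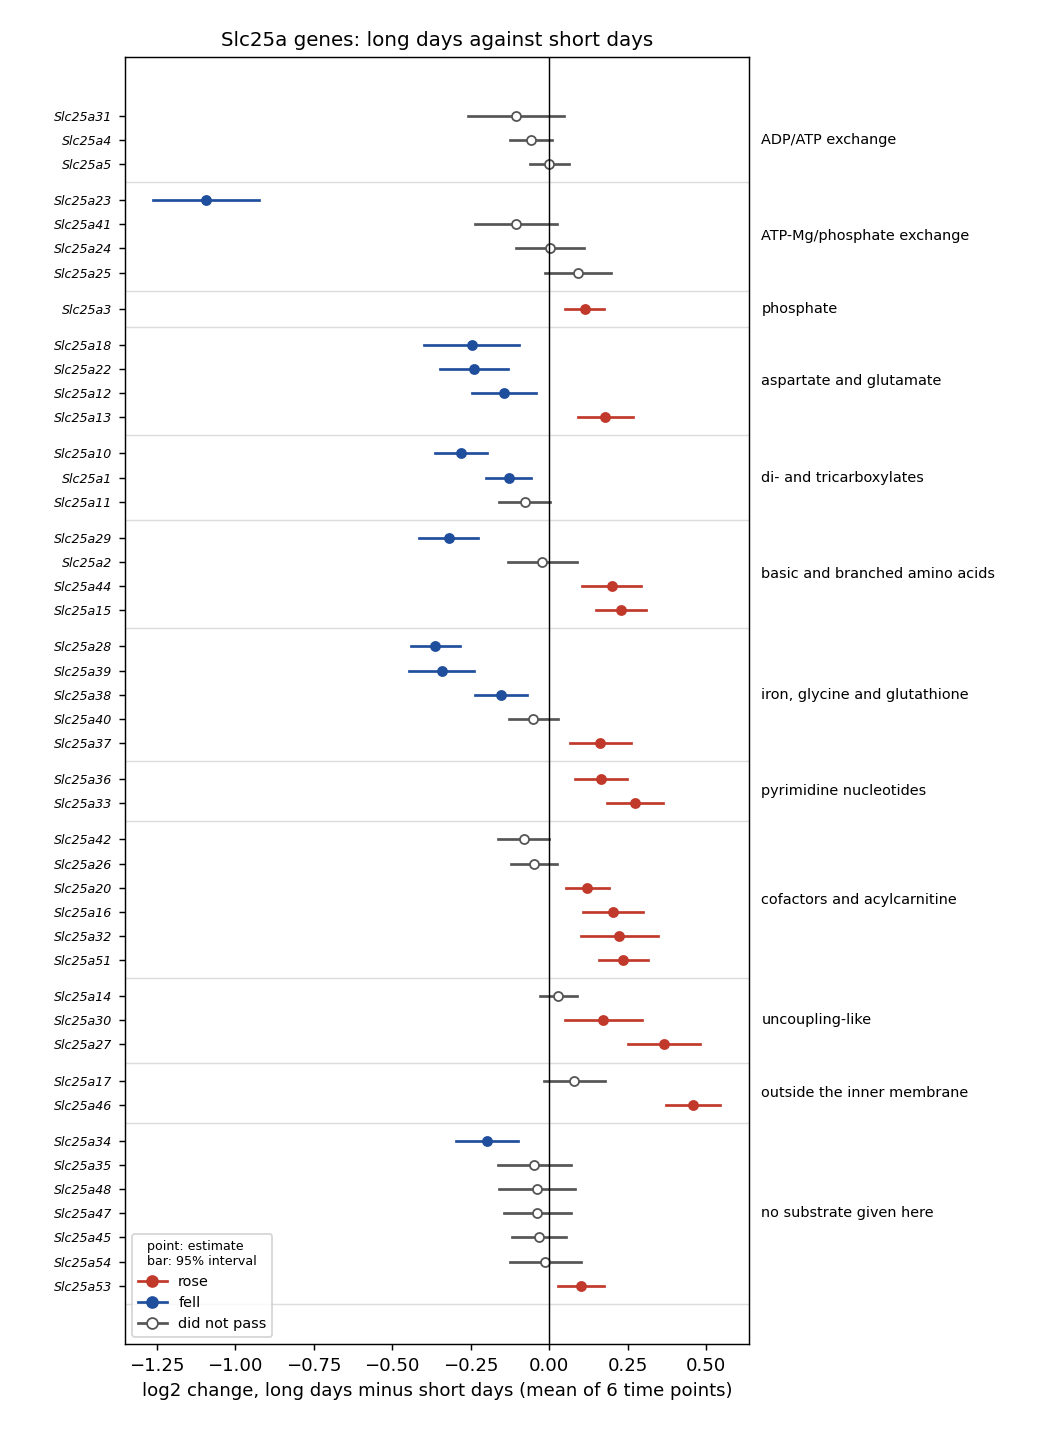
Long minus short day difference of the mean over 6 time points (log2, x axis) for the 44 Slc25a genes, grouped by what they carry. Points are estimates from 12 arrays against 12, bars are 95% confidence intervals, and filled points passed at an adjusted p under 0.05. Slc25a23 lies farthest to the left at −1.09 and Slc25a46 farthest to the right at 0.46.

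Among carriers of adenine nucleotides, the exchangers of ADP for ATP did not pass and 1 of the 4 ATP-Mg/phosphate exchangers fell. Slc25a23, a calcium-regulated ATP-Mg/phosphate carrier that sets the adenine nucleotide pool of the matrix, had a lowest, median and highest array of 7.67, 8.30 and 9.08 under short days and of 6.66, 7.22 and 7.34 under long days. The groups did not overlap, and at each of the 6 time points both long-day arrays lay below both short-day arrays. It fell by 1.09 ± 0.08 on the log2 scale (SE), to a level 2.13-fold lower (adjusted p = 1.23e-12). Groups of 12 arrays that did not overlap were found for 2 of the 44 carriers, Slc25a23 and Slc25a46, and for 5.31% of all genes. The relatives of Slc25a23 did not pass: Slc25a24 changed by 0.00 ± 0.05 (95% interval −0.11 to 0.11), Slc25a25 by 0.09 ± 0.05 (−0.01 to 0.20) and Slc25a41, a dim probe set, by −0.11 ± 0.06 (−0.24 to 0.03).

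The ADP/ATP carriers export the ATP that mitochondria make. Slc25a4, the form of heart, muscle and brain, changed by −0.06 ± 0.03 (interval −0.12 to 0.01) from 13.58 to 13.53. A much dimmer probe set of Slc25a4 (mean 6.44) fell by 0.17 ± 0.05 (limma, adjusted p = 0.0059 over all probe sets). The remaining ones changed by −0.03 and 0.06 and did not pass. Slc25a5, a widely found form, changed by 0.00 ± 0.03 (−0.06 to 0.06). Its 8 probe sets ranged from −0.13 to 0.21, and most of them are of the kind whose probes can bind related transcripts, so its level is uncertain. Slc25a31, known from the testis, was dim here with a mean of 4.58, below the first quartile of probe-set means at 5.43. Slc25a3, the phosphate carrier that supplies ATP synthase, rose by a small 0.11 ± 0.03 (adjusted p = 0.00244), from 13.85 ± 0.07 to 13.96 ± 0.07 (SD, n = 12 each), with overlapping arrays. A dimmer probe set of the same gene rose by 0.50 ± 0.08.

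All 4 carriers of aspartate and glutamate passed, 3 of them downward. Slc25a22, a glutamate carrier, fell by 0.24 ± 0.05 from a lowest, median and highest array of 10.37, 10.58 and 11.06 to 10.17, 10.36 and 10.61 (adjusted p = 0.000326). Slc25a18, the second glutamate carrier, fell by 0.25 ± 0.07 from 8.21, 8.44 and 8.87 to 8.06, 8.18 and 8.78 (adjusted p = 0.00608). The arrays of both genes overlapped between the photoperiods, and the long-day mean was lower at 6 of 6 time points for Slc25a22 and at 5 of 6 for Slc25a18. Slc25a13, the aspartate/glutamate exchanger citrin, rose by 0.18 ± 0.04 (adjusted p = 0.000815). Slc25a12, its neuronal relative aralar, fell by 0.14 ± 0.05 (adjusted p = 0.0184) in the probe set used, but another of its 3 probe sets rose by 0.23 ± 0.04 (adjusted p = 3.19e-06 over all probe sets), so its direction is uncertain.

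Of 3 carriers of di- and tricarboxylates, which move acids of the citric acid cycle, 2 fell. Slc25a10, the dicarboxylate carrier, had 8.32, 8.48 and 8.79 as lowest, median and highest array under short days and 8.04, 8.25 and 8.41 under long days. It fell by 0.28 ± 0.04 (adjusted p = 7.38e-07), with both long-day arrays below both short-day arrays at 5 of 6 time points, and its second probe set fell by 0.21 ± 0.04. Slc25a1, which exports citrate for fatty acid synthesis, fell by 0.13 ± 0.04 (adjusted p = 0.00262). Slc25a11, the oxoglutarate carrier of the malate-aspartate shuttle, changed by −0.08 ± 0.04 (adjusted p = 0.107).

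Among carriers of basic and branched amino acids, Slc25a29, which carries arginine and lysine, fell and Slc25a15, the ornithine carrier of the urea cycle, rose. Slc25a29 had 9.37, 9.58 and 9.75 as lowest, median and highest array under short days and 9.08, 9.25 and 9.43 under long days, a fall of 0.32 ± 0.05 (adjusted p = 5.79e-07). All 5 of its probe sets fell, by −0.38 to −0.19. Slc25a15 went from 9.29, 9.42 and 9.66 to 9.52, 9.71 and 9.79, a rise of 0.23 ± 0.04 (adjusted p = 8.01e-06). Its long-day arrays were both above both short-day arrays at 6 of 6 time points. Slc25a44, which carries branched-chain amino acids, rose by 0.20 ± 0.05 in the probe set used, while another fell by 0.14 ± 0.05. Slc25a2, a second ornithine carrier, was dim at 4.64 and did not pass.

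Of 5 carriers of iron, glycine and glutathione, 3 fell. Slc25a28, mitoferrin 2, imports iron into mitochondria of non-erythroid cells. It had 9.76, 10.08 and 10.35 as lowest, median and highest array under short days and 9.53, 9.71 and 9.84 under long days, a fall of 0.36 ± 0.04 (adjusted p = 1.78e-09). Slc25a39, which imports glutathione, had 12.87, 13.06 and 13.51 under short and 12.59, 12.71 and 13.05 under long days, a fall of 0.34 ± 0.05 (adjusted p = 1.02e-06). The photoperiods overlapped in their extreme arrays for both genes, but at a matched time both long-day arrays lay below both short-day arrays at 5 of 6 times for Slc25a28 and at 6 of 6 for Slc25a39. All 5 probe sets of Slc25a39 fell, by −0.34 to −0.16, although several, the brightest included, have probes that can bind related transcripts. Slc25a38, which carries glycine for heme synthesis, fell by 0.15 ± 0.04 (adjusted p = 0.00179). Slc25a37, mitoferrin 1, known from red cell precursors, rose by 0.16 ± 0.05 (adjusted p = 0.00528). Slc25a40, the close relative of Slc25a39, changed by −0.05 ± 0.04 (interval −0.13 to 0.03).

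Both carriers of pyrimidine nucleotides rose. Slc25a33, which feeds mitochondrial DNA and RNA synthesis, had 10.22, 10.30 and 10.73 as lowest, median and highest array under short days and 10.41, 10.63 and 10.85 under long days, a rise of 0.27 ± 0.04 (adjusted p = 3.4e-06). The long-day mean was higher at 5 of 6 time points. Slc25a36 rose by 0.17 ± 0.04 (adjusted p = 0.00095), and its other 2 probe sets rose by 0.18 ± 0.04 and 0.39 ± 0.06.

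Of 6 carriers of cofactors and acylcarnitine 4 rose and none fell. Slc25a51, which imports NAD, went from 11.01, 11.20 and 11.40 to 11.26, 11.45 and 11.55 as lowest, median and highest array, a rise of 0.24 ± 0.04 (adjusted p = 2.78e-06), with both long-day arrays above both short-day arrays at 6 of 6 time points. Its other 2 probe sets changed by 0.03 ± 0.04 and 0.10 ± 0.05 and did not pass. Slc25a32, a folate and FAD carrier, rose by 0.22 ± 0.06, Slc25a16, linked to coenzyme A, by 0.20 ± 0.05, and Slc25a20, which brings acylcarnitines in for fatty acid oxidation, by 0.12 ± 0.03 (adjusted p = 0.00225, 0.000434 and 0.00316). Slc25a26, which carries S-adenosylmethionine, changed by −0.05 ± 0.04 and Slc25a42, a coenzyme A carrier, by −0.08 ± 0.04, and neither passed. The dimmer probe set of Slc25a26, which was not used, fell by 0.17 ± 0.05 (limma, adjusted p = 0.012 over all probe sets).

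Of 3 carriers that resemble the uncoupling proteins 2 rose. Slc25a27, known as UCP4 and found in brain, went from 7.74, 8.13 and 8.30 as lowest, median and highest array to 8.06, 8.49 and 8.71, a rise of 0.37 ± 0.06 (adjusted p = 1.7e-06) with overlapping arrays. Its other 3 probe sets changed by 0.05 to 0.18. Slc25a30 rose by 0.17 ± 0.06 (adjusted p = 0.0175), and Slc25a14, a brain carrier, changed by 0.03 ± 0.03 (interval −0.03 to 0.09).

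Slc25a46 has the largest rise in the family. Unlike most carriers it sits in the outer mitochondrial membrane, where it takes part in the fusion, fission and lipid supply of mitochondria. Its lowest, median and highest array was 11.77, 11.91 and 12.23 under short days and 12.25, 12.40 and 12.49 under long days, so every long-day array was above every short-day array. The rise was 0.46 ± 0.04, or 1.37-fold (adjusted p = 1.17e-10), and its dimmer probe set rose by 0.19 ± 0.03. Slc25a17, a peroxisomal carrier of cofactors, changed by 0.08 ± 0.05 (interval −0.01 to 0.18). Of the 7 carriers to which no substrate is assigned here, Slc25a34 fell by 0.20 ± 0.05, Slc25a53 rose by 0.10 ± 0.04, and 5 did not pass, among them the dim Slc25a54.

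**Figure D2:**
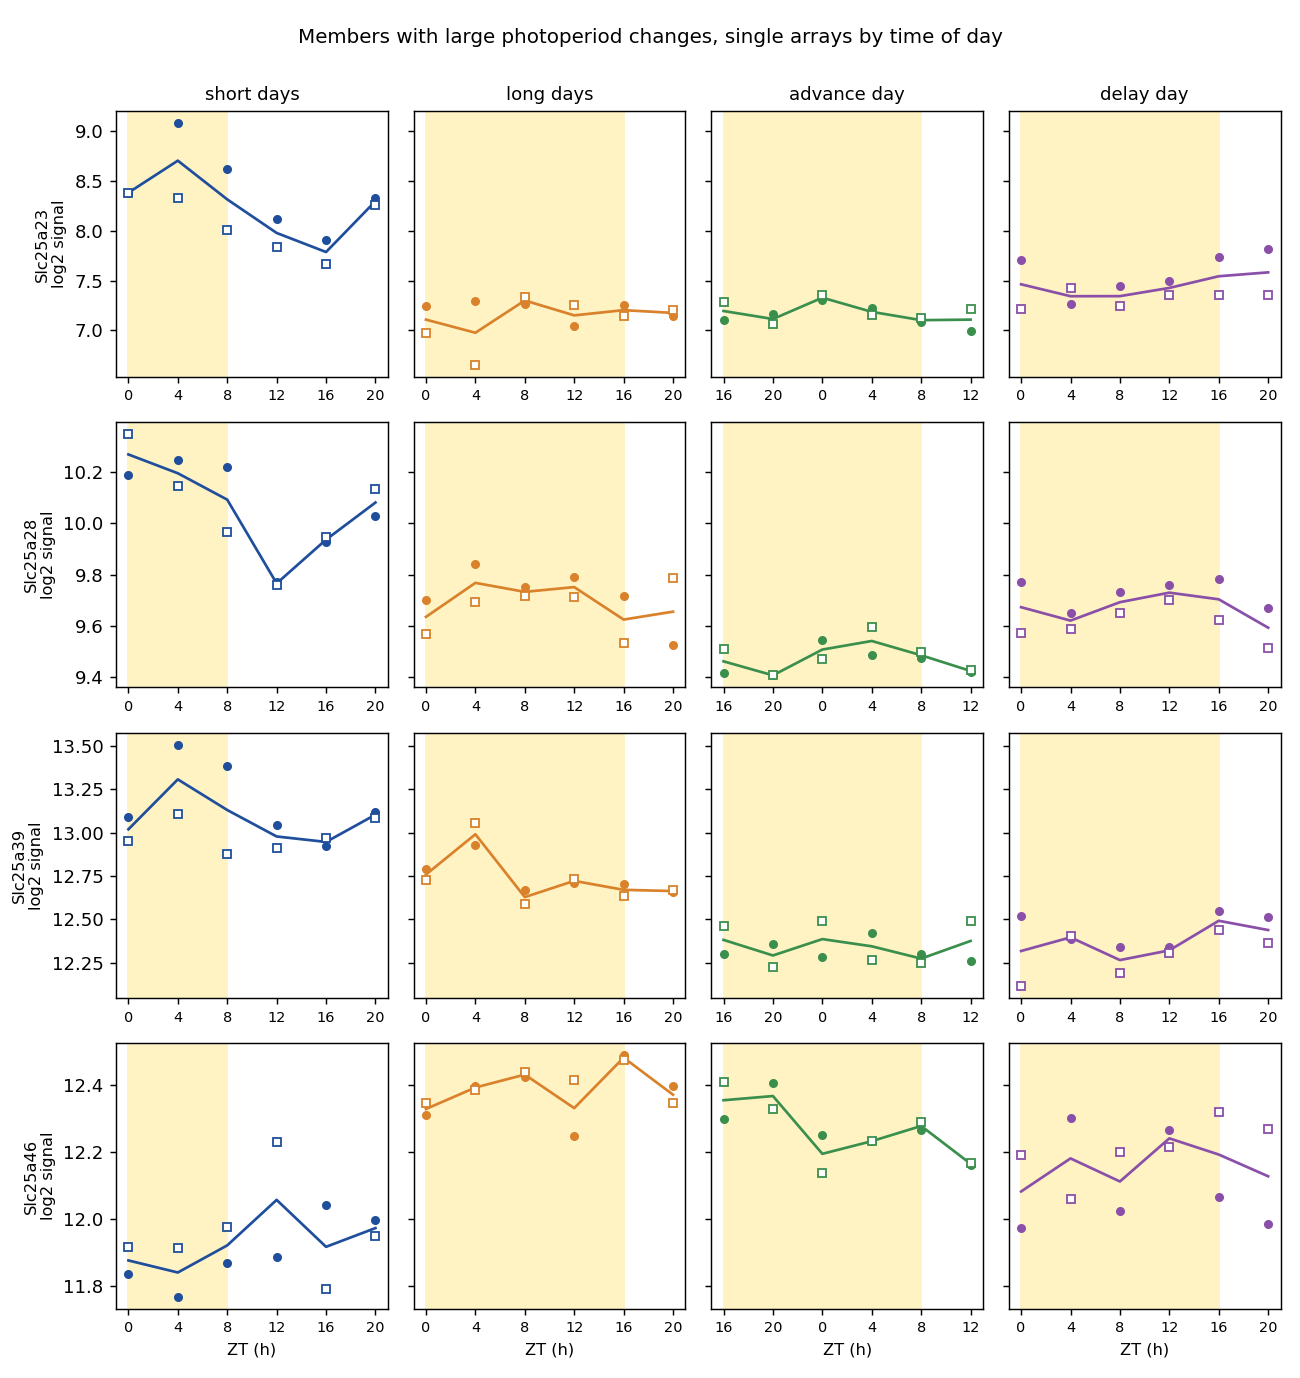
Log2 signal of Slc25a23, Slc25a28, Slc25a39 and Slc25a46 (rows) by ZT in hours (x axis) in the 4 conditions (columns). Filled circles are replicate 1, open squares replicate 2, lines join the means, and shading marks lights on. Slc25a23 reaches 9.08 at ZT4 under short days and stays at or below 7.34 under long days.

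Other probe sets and other fits bear on these calls. The share of all genes that passes under each other fit is not given here, so those counts are not set against a background. On the mean of all probe sets Slc25a3 stood at 0.31, Slc25a27 at 0.18 and Slc25a51 at 0.12, all past the threshold, and Slc25a44 did not pass (0.04, adjusted p = 0.431). The 15 passing carriers with further probe sets have 31 of them, of which 27 shared the sign of the probe set used, 19 of these past the threshold, and 2, in Slc25a12 and Slc25a44, were past it with the opposite sign. With the actin measure as a covariate 16 carriers passed, 15 of them among the 26, and Slc25a1, Slc25a12, Slc25a13, Slc25a16, Slc25a18, Slc25a30, Slc25a32, Slc25a34, Slc25a36, Slc25a37 and Slc25a38 did not. Slc25a23 then stood at −0.92 ± 0.11, Slc25a28 at −0.26 ± 0.05, Slc25a39 at −0.22 ± 0.07 and Slc25a46 at 0.36 ± 0.06, all past the threshold. A single replicate number leaves 1 array per condition and time point. Its calls therefore cannot rest on the spread between arrays of 1 time point, and their counts are not on the footing of the 26. In the arrays of replicate number 1 alone 11 carriers passed and in those of number 2 alone 19. Those that passed in both with the same sign were 9: Slc25a10, Slc25a15, Slc25a22, Slc25a23, Slc25a28, Slc25a29, Slc25a39, Slc25a46 and Slc25a51.

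The next comparison asks which carriers vary over the day. Under short days 2 of 44 passed an F test over the 6 time points, against 8.91% of all genes. Under long days 1 passed against 1.63%, in advance 2 against 2.58% and in delay 1 against 1.52%. The median range between the highest and lowest time-point mean was 0.26 for the carriers and 0.27 for all genes under short days, and 0.21 for both under long days.

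Slc25a28 and Slc25a23, both lower under long days, were those that varied over the short day. Slc25a28 measured 10.19 and 10.35 at ZT0, 10.25 and 10.14 at ZT4, 10.22 and 9.97 at ZT8, 9.77 and 9.76 at ZT12, 9.93 and 9.95 at ZT16 and 10.03 and 10.13 at ZT20. It was high through the light phase and lowest 4 h after lights-off, with a range of 0.50 (adjusted p = 0.00447, limma F test). In the other conditions the range was 0.14 under long days, 0.13 in advance and 0.14 in delay, and no daily variation passed. The test of a difference in course between long and short days gave an adjusted p of 0.0556 for this gene.

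Slc25a23 measured 8.38 and 8.38 at ZT0, 9.08 and 8.33 at ZT4, 8.62 and 8.01 at ZT8, 8.12 and 7.84 at ZT12, 7.91 and 7.67 at ZT16 and 8.33 and 8.26 at ZT20 under short days. It was highest at ZT4 and lowest at ZT16, a range of 0.92 or 1.89-fold (adjusted p = 0.0254, limma F test). The replicates at ZT4 differ by more than those at ZT0, and without the replicate 1 array at ZT4 the adjusted p was 0.132. Without replicate 2 at ZT12 it was 0.0624, and without replicate 2 at ZT16 it was 0.0998. The range was 0.32 under long days, 0.23 in advance and 0.24 in delay, and the test of a difference in course between long and short days did not pass (adjusted p = 0.111). Next by p under short days was Slc25a20, with an adjusted p of 0.087. It measured 10.32 and 10.49 at ZT0 and 10.05 and 10.13 at ZT8, its highest and lowest times.

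Slc25a5 was the carrier that varied under long days. It measured 12.69 and 12.74 at ZT0, 12.94 and 12.97 at ZT4, 12.65 and 12.82 at ZT8, 12.58 and 12.65 at ZT12, 12.64 and 12.66 at ZT16 and 12.54 and 12.58 at ZT20. Both ZT4 arrays stood above the other 10, and the range was 0.40 (adjusted p = 0.0146, limma F test). Without either ZT4 array the call was lost (adjusted p = 0.128 and 0.205), and on the mean of its 8 probe sets the adjusted p was 0.585. In advance, Slc25a5 measured 12.71 and 12.73 at ZT16, 12.77 and 12.78 at ZT20, 12.61 and 12.73 at ZT0, 12.51 and 12.48 at ZT4, 12.48 and 12.47 at ZT8 and 12.54 and 12.67 at ZT12. It was highest at ZT20 and lowest at ZT8, a range of 0.30 (adjusted p = 0.0403), and the call was lost in 11 of 19 other settings, up to an adjusted p of 0.131. Slc25a38 followed under long days with 9.09 and 9.04 at ZT12, its lowest time, and 9.57 and 9.40 at ZT20, its highest (adjusted p = 0.0506). Slc25a16 had 9.27 and 9.51 at ZT12, its highest, and 8.75 and 9.19 at ZT20, its lowest (0.130).

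Slc25a33 varied in both first-day conditions. In advance it measured 9.99 and 10.20 at ZT16, 10.02 and 10.20 at ZT20, 10.02 and 9.88 at ZT0, 10.16 and 10.15 at ZT4, 10.46 and 10.40 at ZT8 and 10.40 and 10.54 at ZT12, a range of 0.52 (adjusted p = 0.00835, limma F test). In delay it measured 9.82 and 9.64 at ZT0, 9.82 and 9.67 at ZT4, 10.03 and 9.96 at ZT8, 10.34 and 10.25 at ZT12, 10.13 and 10.11 at ZT16 and 10.01 and 10.02 at ZT20, a range of 0.57 (adjusted p = 0.00665). The highest mean was at ZT12 and the lowest at ZT0 in both. The advance call was lost without replicate 2 at ZT0 (adjusted p = 0.0506) or at ZT12 (0.0646), and the delay call without replicate 1 at ZT12 (0.0628). The carriers that came next did not pass. Slc25a26 in advance had 9.05 and 9.11 at ZT4, its highest time, and 8.71 and 8.73 at ZT12, its lowest (adjusted p = 0.0774). Slc25a14 in delay had 11.02 and 11.04 at ZT8, its lowest, and 11.33 and 11.41 at ZT16, its highest (0.0586). Slc25a38 in delay had 9.04 and 8.98 at ZT4, its lowest, and 9.36 and 9.34 at ZT16, its highest (0.0951).

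By the probe sets used, a difference of daily course between long and short days passed for Slc25a33 alone among the 44 carriers (adjusted p = 0.0252). Of all genes 4.3% passed. With all probe sets tested singly by the same F test, Slc25a33 stood at an adjusted p of 0.0481. The dimmer probe set of Slc25a53, which was not used, stood at 0.026 there and passed for daily variation in advance (0.0303). The Slc25a53 probe set used passed neither (0.869 and 0.993). Under short days Slc25a33 measured 10.27 and 10.29 at ZT0, 10.73 and 10.31 at ZT4, 10.70 and 10.44 at ZT8, 10.59 and 10.24 at ZT12, 10.27 and 10.41 at ZT16 and 10.26 and 10.22 at ZT20. Under long days it measured 10.63 and 10.62, 10.69 and 10.58, 10.41 and 10.52, 10.63 and 10.63, 10.85 and 10.77, and 10.85 and 10.84 at the same times. The short-day mean was highest at ZT8, where the long-day mean was lowest, and the long-day mean was highest at ZT20, where the short-day mean was lowest. A cosine of 24 h peaked at ZT7.72 under short days, ZT18.8 under long days, ZT10.2 in advance and ZT13.6 in delay. Variation within the short day (adjusted p = 0.126) or within the long day (0.296) did not itself pass. With the photoperiods matched by clock time, the difference in course did not pass (adjusted p = 0.253), nor did it without replicate 1 at short-day ZT8 (0.102), replicate 2 at short-day ZT20 (0.0657), replicate 1 at long-day ZT8 (0.0932) or replicate 1 at long-day ZT20 (0.0502). Slc25a28 and Slc25a16 came next. Slc25a28 ranged from 9.53 to 9.84 over the long-day arrays, beside its short-day course. Slc25a16 measured 8.79 and 8.87 at ZT12 under short days, where its short-day mean was lowest and its long-day mean highest (adjusted p = 0.0685).

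**Figure D3:**
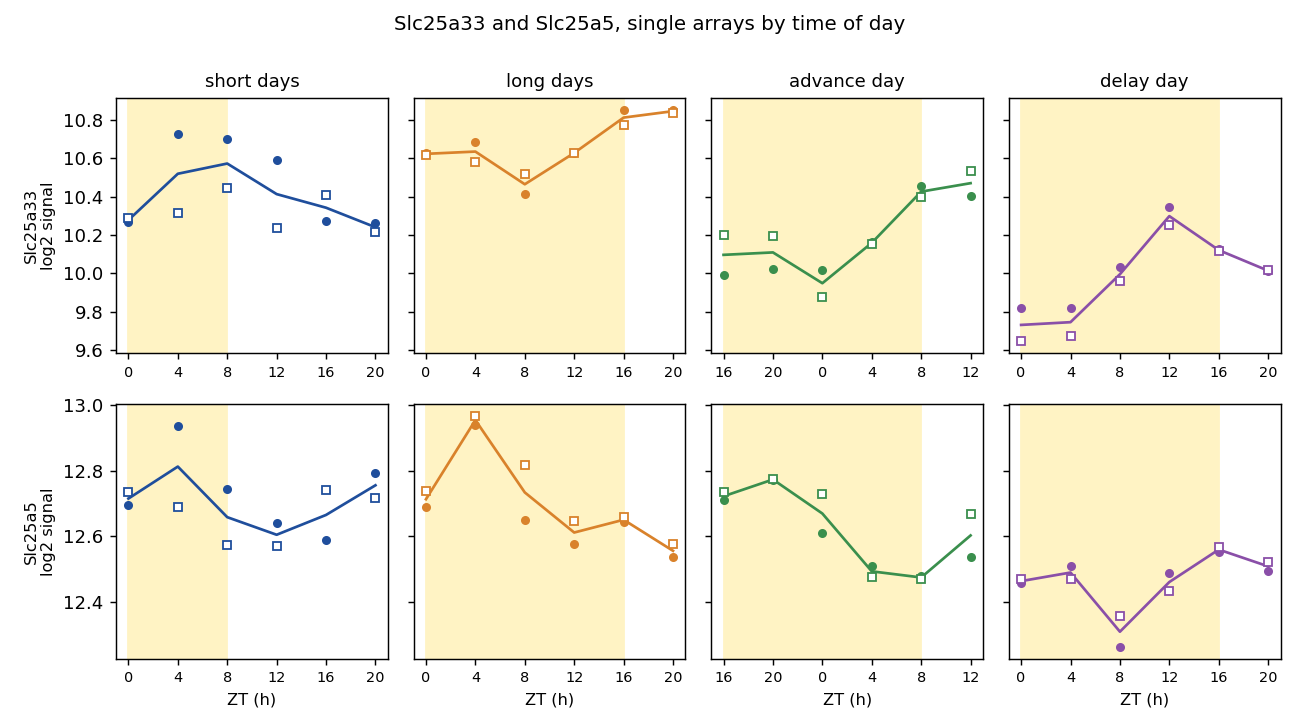
Log2 signal of Slc25a33 and Slc25a5 (rows) by ZT in hours (x axis) in the 4 conditions (columns). Filled circles are replicate 1, open squares replicate 2, lines join the means, and shading marks lights on. The Slc25a33 mean is lowest at ZT0 in advance and delay, and the Slc25a5 mean is highest at ZT4 under long days.

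The first-day conditions share age and differ in where the added light fell. Of 44 carriers 7 were higher and 3 lower in advance than in delay, against 10.3% and 13.8% of all genes (24.1% in all). The median difference was 0.01 for the carriers and −0.02 for all genes. Slc25a3, the phosphate carrier, had 13.72, 13.93 and 14.08 as lowest, median and highest array in advance and 13.63, 13.74 and 13.84 in delay, a difference of 0.19 ± 0.03 (adjusted p = 2.9e-05). Slc25a5 had 12.47, 12.64 and 12.78 in advance and 12.26, 12.48 and 12.57 in delay, a difference of 0.16 ± 0.03 (adjusted p = 0.000231). Arrays of both genes overlapped.

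Slc25a33 was 0.22 ± 0.04 higher in advance (adjusted p = 0.000424), Slc25a11 0.19 ± 0.04, Slc25a44 0.19 ± 0.05, Slc25a25 0.21 ± 0.05 and Slc25a27 0.20 ± 0.06. The other 2 probe sets of Slc25a25 differed by −0.06 and −0.09, and on the mean of its probe sets it did not pass (0.02, adjusted p = 0.759), so its direction is uncertain. On that mean Slc25a3 stood at 0.40, Slc25a27 at 0.10 and Slc25a44 at 0.09, all past the threshold. With the actin measure as a covariate neither Slc25a25 (0.13, adjusted p = 0.148) nor Slc25a23 (−0.17, 0.286) passed. Slc25a28 was lower in advance, with 9.41, 9.47 and 9.60 as lowest, median and highest array against 9.51, 9.66 and 9.78 in delay, a difference of −0.20 ± 0.04 (adjusted p = 0.000265). Slc25a23 was lower by −0.28 ± 0.08 (adjusted p = 0.0125) and Slc25a42 by −0.13 ± 0.04 (0.0175). With the actin measure as a covariate, which itself differed between these conditions, 6 of the 10 passed, and Slc25a23, Slc25a25, Slc25a27 and Slc25a42 did not. The share of all genes under that fit is not given here.

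Against short days, 28 carriers passed in advance, 13 upward and 15 downward, beside 51.4% of all genes (22.2% upward and 29.3% downward). In delay 30 passed, 13 upward and 17 downward, beside 49.8% of all genes (23.8% and 26%). These comparisons and the long-day comparison share the short-day arrays. Age, 6 against 8 weeks, and set of mice go with the first-day conditions and cannot be told apart from the light. Arrays taken before or at the onset of the added light, ZT0, ZT4 and ZT8 in delay and ZT16 in advance, were therefore set against short-day arrays of the same ZT, a contrast chosen after seeing the data. There 25 carriers passed, 9 upward and 16 downward, beside 48.8% of all genes (21.8% and 27%). The labels of the delay arrays name no day, so which of them preceded the added light was read from ZT.

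Marker genes of other cell types moved with these comparisons, and their counts stand beside the shares of all genes given above. Of 9 hypothalamic neuron genes none rose, 5 fell in advance, and 6 fell both in delay and ahead of the added light. Their summed signal lay from 14.35 to 14.64 in advance and from 14.43 to 14.64 in delay, below the short-day range from 14.66 to 15.02. Of 6 astrocyte genes 4 fell in each of the 3 comparisons and 2 rose in advance, with sums from 13.93 to 14.20 in advance, from 13.90 to 14.15 in delay and from 14.01 to 14.27 under short days. Of 4 tanycyte genes 3 fell and 1 rose in each, with sums from 13.28 to 13.60, from 13.29 to 13.75 and from 13.39 to 13.93 in the same order. Of 5 ependymal genes 3 fell in advance and 4 in delay and ahead of the added light. Between advance and delay, 4 of the 7 thyrotroph genes were higher and 1 lower in advance, and of the neuron genes 1 was higher and 3 were lower. The part of these shifts in the carriers' differences was not tested.

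Slc25a39 had 12.23, 12.30 and 12.49 as lowest, median and highest array in advance and 12.12, 12.38 and 12.55 in delay, all below its lowest short-day array of 12.87. The share of all genes whose first-day and short-day arrays do not overlap is not given here. The difference of Slc25a39 from short days was −0.74 ± 0.05 in advance, −0.71 ± 0.05 in delay and −0.76 ± 0.06 in the arrays ahead of the added light. On the mean of its 5 probe sets these differences were smaller, at −0.48, −0.44 and −0.47, and past the threshold in each. Slc25a23 averaged 7.17 ± 0.11 in advance and 7.45 ± 0.20 in delay (SD, n = 12 arrays each), and its highest arrays there were 7.35 and 7.81. Its differences in the same order were −1.07 ± 0.08, −0.79 ± 0.08 and −0.96 ± 0.10. Slc25a28 differed by −0.59 ± 0.04, −0.39 ± 0.04 and −0.51 ± 0.05. Slc25a24, a calcium-regulated relative of Slc25a23 which did not pass between long and short days, had 8.82, 9.06 and 9.24 in advance and 8.94, 9.06 and 9.26 in delay, against 8.23, 8.67 and 8.85 under short days. Its differences were 0.43 ± 0.05, 0.43 ± 0.05 and 0.49 ± 0.06. Slc25a33 was lower in the arrays ahead of the added light, by −0.54 ± 0.05, and by −0.19 ± 0.04 in advance and −0.41 ± 0.04 in delay.

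**Figure D4:**
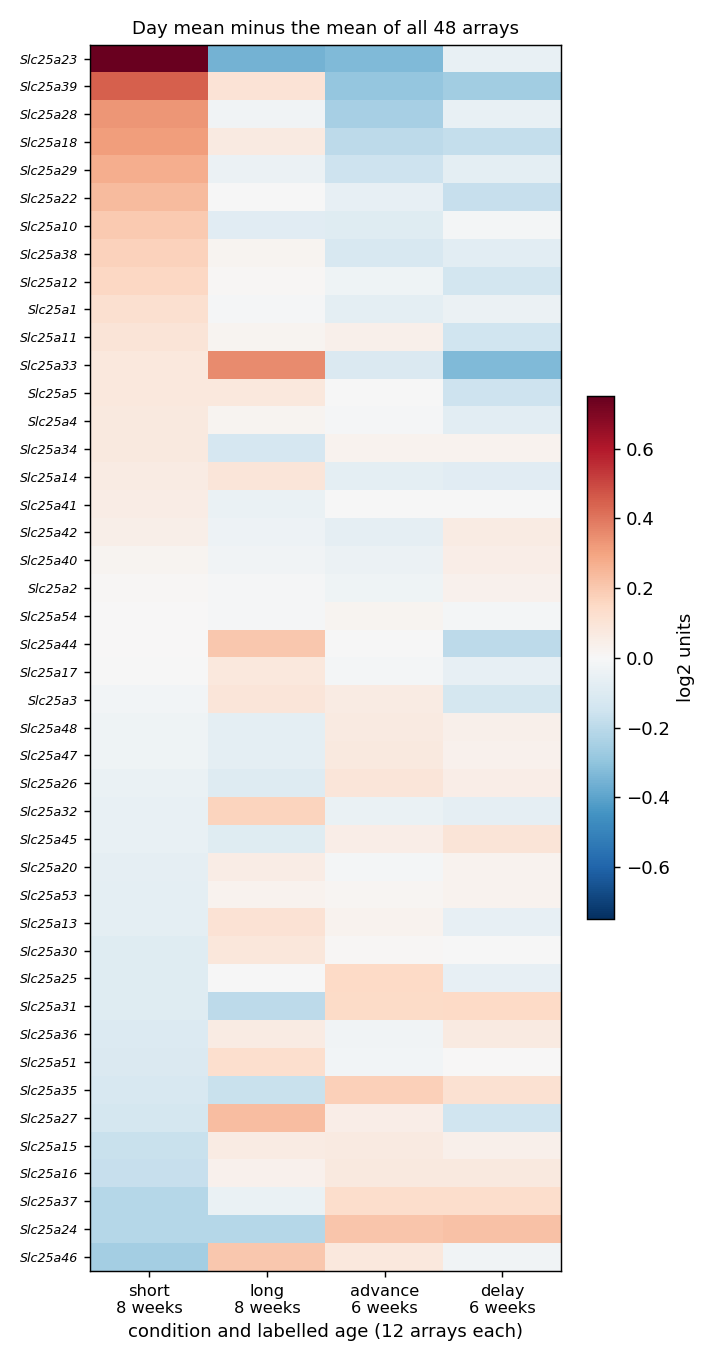
Day mean of each of the 44 Slc25a genes (rows, sorted by the short-day column) in the 4 conditions (columns, 12 arrays each) minus the gene's mean over all 48 arrays (colour, log2). Slc25a23 and Slc25a39 are highest under short days, and Slc25a24 is low in the long-day and short-day columns and high in both first-day columns.

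The response to the first 4 h of added light was read as the step over that interval minus the same step under short days. A constant offset by age or set of mice cancels in this difference. An effect of either on the daily course does not, and cannot be told apart from the light. No carrier passed in either condition by limma, where 0.22% of all genes passed in advance and 0.0385% in delay. At an unadjusted p under 0.05 there were 3 carriers in advance and 6 in delay, against 6.2% and 7.58% of all genes. Slc25a13 went from 6.92 and 6.81 at ZT16 to 6.82 and 6.58 at ZT20 in advance and from 6.46 and 6.51 to 6.83 and 6.74 under short days, a difference of steps of −0.47 with an adjusted p of 0.418. Slc25a29, which went from 9.11 and 9.14 to 8.93 and 9.18 in advance and from 9.37 and 9.46 to 9.75 and 9.62 under short days (−0.34), came next. Slc25a23 went from 7.10 and 7.29 to 7.17 and 7.06 in advance and from 7.91 and 7.67 to 8.33 and 8.26 under short days (−0.59). In delay, Slc25a33 went from 10.03 and 9.96 at ZT8 to 10.34 and 10.25 at ZT12, a difference of steps of 0.46 ± 0.15 with an adjusted p of 0.627, and Slc25a28 (0.36 ± 0.13) and Slc25a14 (0.24 ± 0.10) had the same adjusted p. Over that interval Slc25a28 went from 9.73 and 9.65 to 9.76 and 9.70 in delay and from 10.22 and 9.97 to 9.77 and 9.76 under short days. Slc25a14 went from 11.02 and 11.04 to 11.21 and 11.28 in delay and from 11.44 and 11.33 to 11.30 and 11.41 under short days.

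Other genes of mitochondrial transport and metabolism were taken from lists. Between long and short days 46.7% of all genes passed, 17.6% upward and 29.1% downward. Of 4 relatives under other symbols, Ucp1, Ucp3, Mtch1 and Mtch2, none passed between long and short days. Of 15 other mitochondrial transport genes 2 rose and 7 fell, and Sfxn5, a sideroflexin, fell by 0.82 ± 0.06, Micu3, a partner of the calcium uniporter, by 0.48 ± 0.05, and Mpc1, a subunit of the pyruvate carrier, by 0.37 ± 0.05, while Micu2 rose by 0.18 ± 0.03. Of 23 enzymes of the citric acid cycle and malate-aspartate shuttle 7 rose and 9 fell. Pdha1, of pyruvate dehydrogenase, rose by 0.32 ± 0.03, and Sdhc, Dlst and Suclg1 fell by 0.34 ± 0.04, 0.28 ± 0.04 and 0.25 ± 0.03. Of 15 ATP synthase genes 2 rose and 4 fell, with Atp5d at −0.41 ± 0.07, Atp5c1 at −0.29 ± 0.04, Atp5k at −0.19 ± 0.05 and Atp5a1 at 0.12 ± 0.03. Of 8 genes listed for the carnitine shuttle of fatty acids 4 rose and 3 fell. Acsl3 rose by 0.68 ± 0.05 and Acsl5 by 0.55 ± 0.04, and Cpt1c fell by 0.69 ± 0.05 and Cpt2 by 0.29 ± 0.04. Over the short day 8 of the 23 cycle and shuttle enzymes varied, beside the 8.91% of all genes. So did 1 of the 15 other transport genes, 2 of the 15 ATP synthase genes and 2 of the 8 carnitine shuttle genes. Among the 4 relatives none did. Of the 23 enzymes 1 varied under long days and none in advance or delay.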

How the data were processed

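The values are log2 signals that the authors deposited, made with RMA in R 2.8.0 per the submitters' processing notes, so that background correction, normalization and probe-set summary preceded deposit. The number of arrays, 2 per condition and time point, limits the precision. Of 45101 probe sets, 34958 carried 1 gene symbol and 932 several, which were left out.

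A mean for each of 24 groups was fitted to all 18194 genes with limma 3.58.1 in R 4.3.3 (24 residual degrees of freedom, moderated variances with a trend on level, two-sided tests, Benjamini-Hochberg adjustment at 0.05). The code was tested on simulated data. Daily variation was an F test over 6 times. Described with array values were the 10 carriers with the largest long-day change and the 3 with the smallest p in each other test, plus further carriers and, of every list, up to 4 genes with the smallest p. The members, lists and rule were chosen with earlier results of these data known. Promoters were RefSeq's. No pair of arrays was identical. No label says that a replicate number marks a shared run, and the main model has no block for it.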

Additional observations from a re-analysis of the deposited data

Results flagged for a closer look

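The daily course of Slc25a33, the pyrimidine nucleotide carrier, differed between long and short days by a test of the difference itself (limma, adjusted p = 0.0252). It was the only carrier of the 44 to do so in the main fit, against 4.3% of all genes. A dimmer probe set of Slc25a53, which was not used, also passed when all probe sets were tested by the same F test (adjusted p = 0.026). More carriers passed with dim genes left out or with a replicate block, as given below. Leaving out any of 4 single arrays, short-day ZT8 replicate 1, short-day ZT20 replicate 2, long-day ZT8 replicate 1 or long-day ZT20 replicate 1, ended the call (adjusted p from 0.0502 to 0.102), as did matching the photoperiods by clock time (0.253). The cause was not tested.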

How the results depend on the processing

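Counts of carriers that pass moved as follows. The shares of all genes under these other fits are not given here, so whether the whole array moved alike cannot be read from the counts. Those from a single replicate number cannot rest on the spread between arrays of 1 time point, as the main fit does. Long minus short days gave 16 with the actin measure as a covariate and 11 in replicate number 1 alone, in place of 26, and advance minus delay gave 6 in place of 10 with that covariate. The course difference gave 0 when matched by clock time, 2 with dim genes left out and 5 with a replicate block, over all arrays or within each condition (the latter chosen after seeing the data), in place of 1. Daily variation in advance gave 1 with the mean of all probe sets or without the trend, in place of 2. In delay it gave 2 with arrays centred on their median, dim genes left out or either replicate block, in place of 1, and under long days 2 with dim genes left out and 3 with either replicate block, in place of 1. With the mean of all probe sets 3 signs reversed: Slc25a12 in long minus short days (0.053, adjusted p = 0.189), Slc25a3 in advance minus short days (−0.029, 0.596) and Slc25a44 ahead of the added light (0.0087, 0.884). The cause was not tested. Leaving out 1 array at a time gave 24 to 27 for long minus short days, 1 to 3, 0 to 3, 0 to 2 and 0 to 2 for daily variation under short days, long days, advance and delay, 0 to 4 for the course difference, 9 to 13 for advance minus delay, 25 to 29 and 28 to 31 for advance and delay minus short days, 0 for both steps and 23 to 27 ahead of the added light. Arrays whose loss brought a daily count to its lowest were short-day ZT4 replicate 1 and ZT16 replicate 2, long-day ZT4 replicates 1 and 2, advance ZT0 replicate 2 and delay ZT12 replicate 1, and for the course difference short-day ZT20 replicate 2 and long-day ZT8 replicate 1. Of the 26 carriers that passed between long and short days 9 kept their call in every setting run, Slc25a23 between −1.20 and −0.92. The replicate 1 minus 2 differences of any 2 groups correlated at a median of 0.238 in the long-day groups (14 of 15 pairs over 0.1, lowest 0.0869), 0.273 in delay (11 of 15), 0.0328 under short days (3 of 15), 0.0698 in advance (6 of 15) and 0.116 between long and short days at the same ZT (3 of 6). Same-numbered arrays thus went together in some conditions, though not in every pair, and the number was not taken as a pairing.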
